A study of Homo sapiens with 27 samples.

Results

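The ARMCX genes and their relative GPRASP1 were followed through 27 bead arrays of HT1080 cells, a human fibrosarcoma line. All probes annotated to ARMCX1 to ARMCX6 or to GPRASP1 were taken, which gave 11 of the 48803 probes on the array and covered 6 of the 7 genes. ARMCX4 had no probe in the annotation used and is not described further than its sequence. The family was chosen by the array values of ARMCX2, already known to be low in the NET29 and NET39 lines, so every comparison that holds arrays of these lines is a description without a test. The study asked what nuclear envelope transmembrane proteins (NETs), which draw chromosomes to the edge of the nucleus, do to transcription.

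All groups were HT1080 cells. Stable lines carried full-length NET29 (gene TMEM120A, n = 4 arrays), NET39 (PLPP7, n = 4) or NET47 (TM7SF2, n = 3), each fused to green fluorescent protein (GFP), after Geneticin selection. They were set against untreated cells (n = 4), which lack the GFP and the selection. Other cells were given only the soluble nucleoplasmic part of NET29, NET39 or NET47 (n = 3 each), and were set against cells given GFP that carries a nuclear localisation signal (the NLS-GFP group, n = 3). The sample labels call these transfections transient, whereas the study's text in one place calls the fragment cells stable, so how the fragments were expressed is not settled. The number of independent lines or clones behind each stable group was not given, and the study speaks of passages. The p-values therefore measure the spread between arrays only. For ARMCX2, p-values that involve untreated arrays reuse arrays by which the gene was chosen, so they are not independent of that choice. The first principal component held 36.3% of the variance and placed untreated replicate 4 (22) with the fragment and NLS-GFP arrays (the other untreated and stable arrays lay below 0), while untreated replicate 2 (42.5) and NET47 line replicate 3 (38.5) stood apart on the second (17.8%). TM7SF2 read 12.50 ± 0.13 (SD, n = 3) in the NET47 line and 6.55 ± 0.08 (n = 4) in untreated cells, and TMEM120A 8.22 ± 0.26 in the NET29 line and 6.91 ± 0.27 in untreated cells (n = 4 each, log2 intensity). PLPP7 was above background on 0 of the 4 arrays of the NET39 line, so its probe did not bear out that label. The study itself reports NET39 above its endogenous level by semi-quantitative RT-PCR. Whether the PLPP7 probe covers the expressed sequence was not tested. Of the marker lists, all 6 mesenchymal genes and 0 of 3 epithelial, 0 of 3 blood, 0 of 2 hepatocyte and 0 of 3 muscle genes were above background on at least 3 arrays, as was 1 of 3 adipocyte genes, FABP4, on 9 of 27 arrays spread over 6 of the 8 groups.

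ARMCX proteins carry armadillo repeats, and most of them are anchored in the outer mitochondrial membrane. The genes lie together on the X chromosome in placental mammals and are strongly expressed in the nervous system, where ARMCX1 and ARMCX3 are known, mainly from mouse, for their part in the movement of mitochondria along axons. GPRASP1 belongs to the same superfamily but works on receptors: it binds G protein-coupled receptors and sends them to lysosomes.

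The family lies in 2 groups on Xq22 (GRCh38.p14). ARMCX4, ARMCX1 (chrX:101550547-101554700), ARMCX6 (chrX:101615125-101618000), ARMCX3 (chrX:101623151-101627843) and ARMCX2 (chrX:101655281-101659850) follow each other with no gene of the neighbour list between them, and ARMCX5 (chrX:102599206-102604159) and GPRASP1 (chrX:102651483-102659083) follow further along. RefSeq promoter windows, from 250 bases before to 50 bases after the annotated start, were given for 6 of the 7 genes. The palindrome CACGTG was present once in the windows of ARMCX1, ARMCX2 and ARMCX6 and in 1 of the 2 windows of ARMCX4, and in neither ARMCX5 nor GPRASP1, against 7.23% of all 34943 windows. These 4 stretches are shown because they set the member whose probe was low in the NET29 and NET39 lines beside its nearest relatives. Each holds 50 bases before and 20 bases after the motif, which is in capitals.
ARMCX1, chrX:101550468-101550543, plus strand: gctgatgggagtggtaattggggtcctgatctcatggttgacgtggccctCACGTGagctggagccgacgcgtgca
ARMCX2, chrX:101659885-101659960, minus strand: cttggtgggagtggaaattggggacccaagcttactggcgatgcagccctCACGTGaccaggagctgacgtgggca
ARMCX4, chrX:101485359-101485434, plus strand: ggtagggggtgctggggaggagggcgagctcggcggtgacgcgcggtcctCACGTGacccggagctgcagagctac
ARMCX6, chrX:101617976-101618051, minus strand: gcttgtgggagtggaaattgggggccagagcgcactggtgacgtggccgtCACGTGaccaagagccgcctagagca

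The motif starts 29 bases before the annotated start of ARMCX1, 60 before that of ARMCX2, 47 before that of ARMCX4 and 1 before that of ARMCX6. In all 4 the palindrome extends to TCACGTGA, a longer form that was noticed on reading the sequences and stood in 0.979% of all windows. ARMCX2 shared 57 of 75 aligned bases with ARMCX1 (76%), 59 of 75 with ARMCX6 (78.7%) and 50 of 66 with ARMCX4 (75.8%). The CCAAT box, searched as CCAAT on both strands and present in 34.6% of all windows, was found in the windows of ARMCX1, ARMCX2, ARMCX5 and ARMCX6 and in the same ARMCX4 window. The GC box (GGGCGG, both strands, 44.9% of all windows) was absent from those 5 windows. It was present 2 times in the other ARMCX4 window and 3 times in that of GPRASP1. TGACG (both strands, 24.5% of all windows) was present in the 4 windows that hold CACGTG and in no other window of the family. A match of letters is a description of these windows. Promoter windows of ARMCX3 were not used here.

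Detection of the members differed. A probe was called above background on an array when its intensity exceeded the 95th percentile of 620 probes for gene families expected to be silent, such as olfactory receptors, a level of 51.4 to 64.4 in untreated and stable arrays and 60.5 to 83.1 in fragment and NLS-GFP arrays. The ARMCX2 probe, both ARMCX1 probes, the ARMCX5 probe and all 3 ARMCX6 probes were above it on 27 of 27 arrays, and 2 ARMCX3 probes on 26 of 27. The third ARMCX3 probe (ILMN_1651741) and the only GPRASP1 probe (ILMN_1787627) were above it on 0 of 27, and GPRASP1 was therefore not detectable in any group. Probe sequences were not used, so binding to a near-identical transcript, such as the ARMCX6-related pseudogene ARMCX7P in the same region, was not tested.

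ARMCX2, a mitochondrial membrane protein of the family that has been described as reduced in several carcinomas, was the member that differed most between groups. Its probe (ILMN_1785170) was at 2065, 977, 1015 and 516.2 in untreated replicates 1 to 4, as deposited intensity. It was at 105.9, 161.6, 125.2 and 155.3 in the NET29 line and at 130.1, 146.3, 105.7 and 146.4 in the NET39 line. Each of these 8 arrays was below every array of the other 6 groups, yet all 8 were above their own background level. In the NET47 line the probe was at 1389, 1470 and 1623. With NLS-GFP it was at 1222, 984.5 and 1307. These arrays lay within the range of the untreated cells. With the soluble fragments it was at 619.2, 896.5 and 978 (NET29), at 1369, 1452 and 1629 (NET39) and at 2258, 1666 and 1899 (NET47). The untreated arrays thus spanned most of the range of the 6 groups in which the gene was not low.

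**Figure D1:**
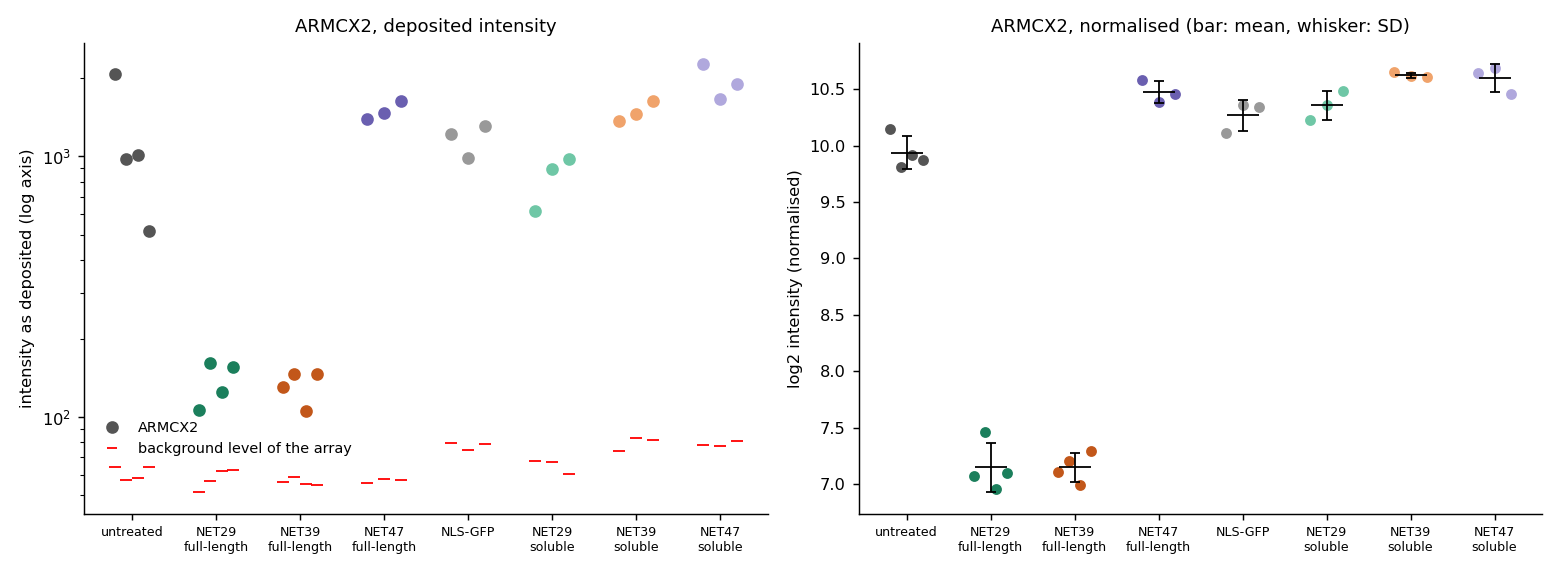
ARMCX2 on each of the 27 arrays in 8 groups: deposited intensity on a log axis with each array's background level as a red dash (left), and log2 intensity after normalisation with mean and SD (right). The 8 arrays of the NET29 and NET39 lines lie between 105.9 and 161.6 as deposited, above their background levels and below all other arrays, the lowest of which is untreated replicate 4 at 516.2.

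After normalisation the mean log2 intensity of ARMCX2 was 7.15 in both the NET29 and the NET39 line and 9.94 in untreated cells, then 10.27 with NLS-GFP, 10.36 with soluble NET29, 10.48 in the NET47 line, 10.60 with soluble NET47 and 10.62 with soluble NET39. In this order the arrays of neighbouring groups overlapped at every step except that from the NET39 line to untreated cells. The log2 fold change against untreated cells was -2.79 ± 0.10 (SE) in the NET29 line (6.92-fold lower) and -2.79 ± 0.10 in the NET39 line (6.91-fold lower). In RNA of whole cultures, fewer expressing cells and less RNA per cell cannot be told apart. The 2 lines share the untreated arrays, and between the lines themselves ARMCX2 differed by 0.00 (SE 0.10). Only 42 of 48803 probes (0.0861%) passed the threshold between the NET29 and NET39 lines, and of the 11 member probes 0 did. The threshold is an adjusted p under 0.05 over all probes with a log2 fold change beyond 0.5. The study used the same cut-offs on moderated F-statistics, with NLS-GFP and untransfected cells as reference. Here they were applied to each comparison on its own.

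In the NET47 line ARMCX2 lay on the other side of the control. Of 11 member probes 2 did not overlap with untreated cells there, ARMCX2 and the ARMCX6 probe ILMN_1768226 (6.17% of all probes). For ARMCX2 normalised values were 10.58, 10.39 and 10.46 against 10.15, 9.81, 9.92 and 9.87 in untreated cells, without overlap. The log2 fold change of 0.54 ± 0.10 (SE, 1.45-fold higher, 95% confidence interval 0.33 to 0.75) passed the threshold (limma, adjusted p = 0.00535), and this was the only member probe of 11 to do so, against 0.604% of all probes. The untreated arrays also served in the choice of ARMCX2, so this test is not independent of that choice. The call stood close to the fold limit. It was lost without NET47 line replicate 1 (0.49, adjusted p = 0.0638), without untreated replicate 2 (0.50, adjusted p = 0.0195), under median scaling (0.57, adjusted p = 1) and against NLS-GFP in place of untreated cells (0.21, adjusted p = 0.297). The NET47 line stood 3.33 ± 0.10 (SE) above the NET29 line and 3.33 ± 0.10 above the NET39 line, which as folds are 10.1 and 10 (values given as a description).

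The soluble fragments left ARMCX2 nearer to its control. Against NLS-GFP, at 10.11, 10.36 and 10.34, soluble NET39 arrays were at 10.65, 10.61 and 10.60 and soluble NET47 arrays at 10.64, 10.69 and 10.45, all above the control arrays. The differences of 0.35 ± 0.11 and 0.33 ± 0.11 (SE) did not pass (limma, adjusted p = 0.264 and 0.301). Soluble NET29 arrays, at 10.23, 10.36 and 10.48, overlapped with the control, and their difference of 0.09 ± 0.11 (95% confidence interval -0.14 to 0.31, adjusted p = 0.791) turned to -0.42 under median scaling. As deposited, all 3 were below the NLS-GFP arrays. The 95% confidence intervals were 0.13 to 0.58 with soluble NET39 and 0.10 to 0.55 with soluble NET47. The effect of full-length protein minus that of the fragment was -2.88 ± 0.15 for NET29 and -3.14 ± 0.15 for NET39 (SE, described without a test), and 0.21 ± 0.15 for NET47 (adjusted p = 0.926). Control and, by the labels, mode of expression and selection differ along with protein length in these contrasts and cannot be told apart. NLS-GFP cells were 0.33 ± 0.10 above untreated cells in ARMCX2 (adjusted p = 0.104).

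**Figure D2:**
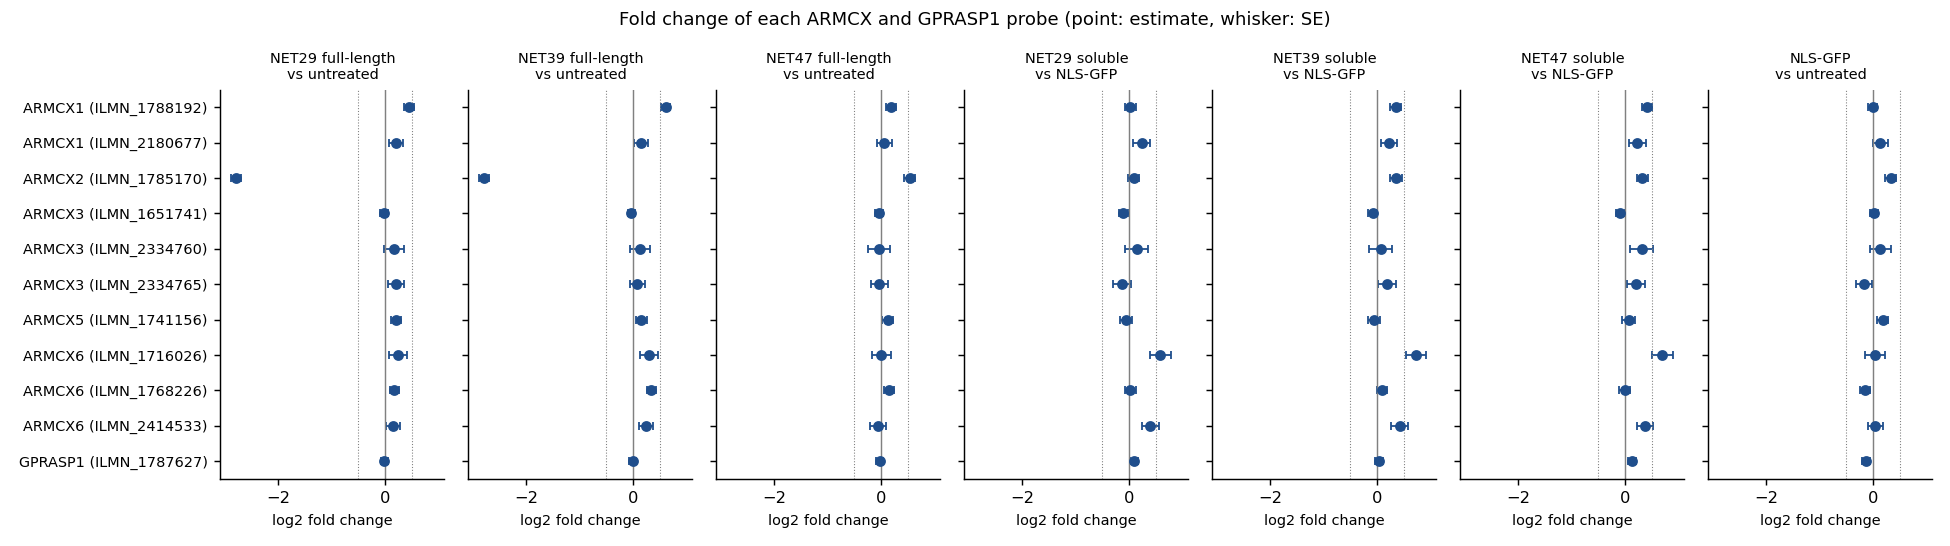
Log2 fold change (point) and SE (whisker) of each of the 11 probes for ARMCX genes and GPRASP1 in 7 comparisons, with dotted lines at the fold limit of 0.5 on either side of 0. ARMCX2 stands at -2.79 in the NET29 and NET39 lines and 0.54 in the NET47 line, and the other 10 probes lie between -0.17 and 0.73 throughout.

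The other members did not follow ARMCX2 down. In the NET29 line, 1 of 11 member probes was past the limits (ARMCX2, lower, against 1.65% of all probes), and in the NET39 line 2 were (ARMCX2 lower and ARMCX1 higher, against 1.89%). These counts come from the contrasts by which the family was chosen, and nothing is read from them. Of the 11 log2 fold changes 8 were above 0 in each of the 2 lines, with a median of 0.17 in the NET29 line and 0.15 in the NET39 line, beside a median of 0.00 over all probes in both. Arrays did not overlap with those of untreated cells for 3 of 11 probes in each line (5.79% and 6.19% of all probes). In the NET29 line these were ARMCX2 and both ARMCX1 probes, and in the NET39 line ARMCX2, the ARMCX1 probe ILMN_1788192 and the ARMCX6 probe ILMN_1768226.

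ARMCX1, known from mouse to promote mitochondrial transport and axon regrowth, was higher in the NET29 and NET39 lines by its brighter probe. Its arrays by that probe also lay above NLS-GFP with soluble NET39 and soluble NET47, where ARMCX2 was not low. On the log2 scale the ARMCX1 probe ILMN_1788192 was at 9.19, 9.03, 9.12 and 9.36 in untreated cells. It was at 9.63, 9.66, 9.62 and 9.60 in the NET29 line. In the NET39 line it was at 9.76, 9.94, 9.76 and 9.71, above every NET29 array. The log2 fold change was 0.45 ± 0.09 (SE, 1.36-fold) in the NET29 line and 0.62 ± 0.09 (1.53-fold) in the NET39 line. With NLS-GFP as the control in place of untreated cells it was 0.46 and 0.62. The NET47 line, at 9.38, 9.29 and 9.43, overlapped with untreated cells (0.19 ± 0.09, limma adjusted p = 0.695, 95% confidence interval 0.00 to 0.38).

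Among the fragments, ARMCX1 was at 9.54, 9.36 and 9.83 with soluble NET47 and at 9.51, 9.57 and 9.47 with soluble NET39, against 9.13, 9.04 and 9.33 with NLS-GFP. All arrays of both fragments were above the control. The soluble NET47 difference of 0.41 ± 0.10 had an adjusted p of 0.0447 (limma) but stayed under the fold limit, and that of soluble NET39 was 0.35 ± 0.10 (adjusted p = 0.2). Soluble NET29, at 9.28, 9.24 and 9.05, overlapped with NLS-GFP (0.02 ± 0.10, adjusted p = 0.946). The order of group means ran from NLS-GFP (9.17), untreated (9.18) and soluble NET29 (9.19), which overlapped with each other, through the NET47 line (9.37), soluble NET39 (9.52) and soluble NET47 (9.58) to the NET29 (9.62) and NET39 lines (9.79). Soluble NET47 overlapped with both soluble NET39 and the NET29 line, its neighbours in this order. The second ARMCX1 probe, ILMN_2180677, was dim, with intensities of 69 to 180, and moved less. Its log2 fold changes were 0.20 ± 0.13 and 0.15 ± 0.13 in the NET29 and NET39 lines and 0.22 ± 0.15 and 0.23 ± 0.15 with soluble NET39 and soluble NET47 (adjusted p = 0.73 and 0.825), with arrays above those of the control without overlap in 3 of these 4, the exception being the NET39 line. It correlated with the first probe at 0.12 over 27 arrays, among them soluble NET29 replicate 3 at 7.53, where the other 2 arrays of that group were at 6.48 and 6.78.

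**Figure D3:**
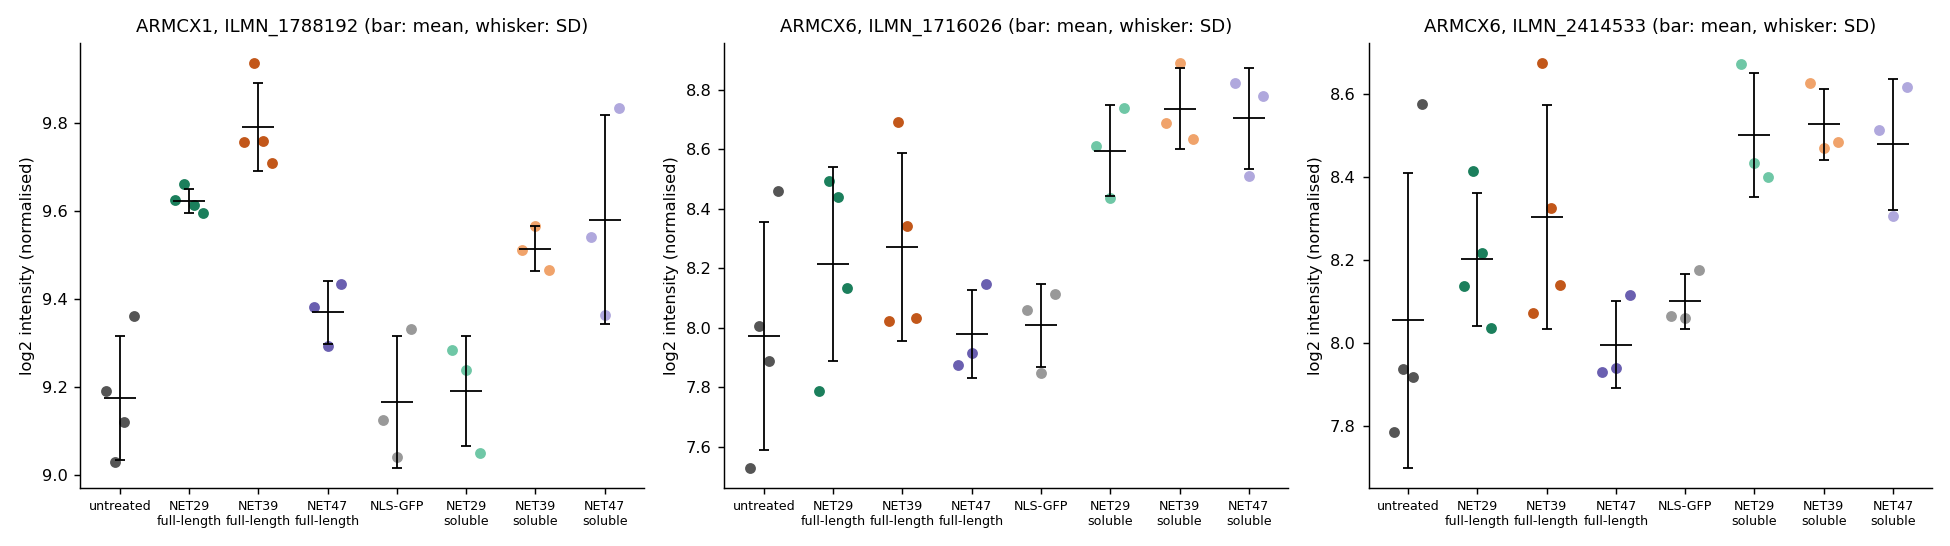
Normalised log2 intensity of ARMCX1 (ILMN_1788192) and of 2 ARMCX6 probes (ILMN_1716026 and ILMN_2414533) on each array by group, with mean and SD (the y axes do not start at 0). ARMCX1 runs from 9.17 with NLS-GFP to 9.79 in the NET39 line, and both ARMCX6 probes are higher on all 9 fragment arrays than on the 3 NLS-GFP arrays.

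ARMCX6, whose protein has no well-defined role, had its highest group means with the 3 soluble fragments by 2 of its 3 probes, and in the 3 stable lines by the other. Probe ILMN_1716026 was at 8.06, 7.85 and 8.11 with NLS-GFP. It was at 8.61, 8.44 and 8.74 with soluble NET29, at 8.69, 8.89 and 8.63 with soluble NET39 and at 8.82, 8.51 and 8.78 with soluble NET47. All 9 fragment arrays were above all 3 control arrays. The differences were 0.59 ± 0.19 for NET29 (SE, 1.5-fold), 0.73 ± 0.19 for NET39 (1.66-fold) and 0.70 ± 0.19 for NET47 (1.62-fold), and none passed over all probes (limma, adjusted p = 0.141, 0.162 and 0.121). The 3 comparisons share the NLS-GFP arrays. When the spread was estimated from the compared arrays alone, all 3 passed (adjusted p = 0.0109, 0.00518 and 0.00862). Soluble NET29 fell to 0.11 under median scaling, the lowest of its alternatives.

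A second ARMCX6 probe, ILMN_2414533, correlated with the first at 0.90 over 27 arrays and gave 0.40, 0.43 and 0.38 for the same fragments (SE 0.16 each, adjusted p = 0.227, 0.365 and 0.514), and the soluble NET29 value turned to -0.06 under median scaling. The third, ILMN_1768226, correlated with them at -0.14 and gave 0.03, 0.10 and 0.00 (SE 0.10 each). This dim probe placed the fragments among its lowest groups, with means of 6.92, 6.75 and 6.73 in the NET39, NET29 and NET47 lines. It was at 6.58 in untreated cells and 6.43 to 6.53 with the fragments and NLS-GFP. Against untreated cells it was at 0.34 ± 0.08 in the NET39 line and 0.15 ± 0.09 in the NET47 line (adjusted p = 0.875), both without overlap of the arrays, and at 0.17 ± 0.08 in the NET29 line, with overlap. Against NLS-GFP it was at 0.49 (NET39), 0.29 (NET47) and 0.32 (NET29) in the lines, all without overlap and under the fold limit. In the stable lines the first probe overlapped with untreated cells throughout, at 0.24 ± 0.17 (NET29), 0.30 ± 0.17 (NET39) and 0.01 ± 0.18 (NET47, adjusted p = 0.999). Untreated replicate 4 was the highest untreated array of both correlated probes (8.46 and 8.58) and reached the range of the fragment arrays. For NET47, full-length effect minus fragment effect was -0.69 ± 0.26 (limma, adjusted p = 0.571).

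In count, 0 of 11 member probes passed the threshold with soluble NET29 (0.684% of all probes), soluble NET39 (0.0799%) or soluble NET47 (0.572%), and 0 with NLS-GFP against untreated cells (0.693%). At an unadjusted p under 0.05 the counts were 2, 4, 4 and 1 of 11. No share of all probes at this cut is given. The fragment comparisons share the NLS-GFP arrays and several probes belong to 1 gene, so nothing is read from these counts. Arrays did not overlap for 3 of 11 probes with soluble NET29 (18.1% of all probes), 5 with soluble NET39 (14.7%) and 7 with soluble NET47 (12.7%), against 1 with NLS-GFP (9.68%). The 7 with soluble NET47 were both ARMCX1 probes, ARMCX2, the ARMCX3 probe ILMN_2334765 and the 2 correlated ARMCX6 probes above NLS-GFP, and GPRASP1, which was not above background. The median log2 fold change of the 11 probes was 0.09, 0.19 and 0.23 for the 3 fragments, beside 0.00 over all probes.

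ARMCX3, which in mouse links mitochondria to the Miro and Trak transport proteins, passed the threshold by none of its probes in any comparison of a line or fragment with its control. Probe ILMN_2334760 ranged from 6.04 to 7.38 in untreated cells, the widest spread of any group for this probe, and from 6.66 to 7.54 on all other arrays. ARMCX3 is the nearest family member to ARMCX2 on the chromosome, and its log2 fold changes in the NET29 line were 0.17 ± 0.19 (ILMN_2334760) and 0.21 ± 0.14 (ILMN_2334765), those in the NET39 line 0.14 ± 0.19 and 0.08 ± 0.14. In the NET47 line they were -0.03 ± 0.20 and -0.03 ± 0.15 (limma, adjusted p = 0.999 for both). The largest fragment value was 0.31 ± 0.21 with soluble NET47 (adjusted p = 0.837). Probe ILMN_2334765 was between 6.54 and 6.81 with soluble NET47 and between 6.46 and 6.51 with NLS-GFP, without overlap (0.21 ± 0.16, adjusted p = 0.872). Set against NLS-GFP, the NET29 line was 0.38 ± 0.15 higher by this probe, also without overlap.

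ARMCX5, a member of the second cluster, lay between 6.64 and 7.22 on all 27 arrays. Its group means spanned 0.25, from 6.84 in untreated cells to 7.09 with soluble NET47, and the arrays of every line overlapped with those of untreated cells. The fold changes in the NET29, NET39 and NET47 lines were 0.21, 0.16 and 0.12 (SE 0.10 to 0.11, adjusted p = 0.957 for NET47). A read-through transcript that joins ARMCX5 to GPRASP2 is annotated, and the array values do not separate it from ARMCX5. GPRASP1 values, between 5.73 and 6.09, are background.

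The related genes GPRASP2, GPRASP3 and ARMC10, the autosomal member of the family, were examined next. GPRASP2, a receptor-sorting protein like GPRASP1, was at 7.69 ± 0.26 (SD, n = 4) in untreated cells, 8.16 ± 0.08 (n = 4) in the NET29 line, 8.24 ± 0.12 (n = 4) in the NET39 line and 7.90 ± 0.04 (n = 3) in the NET47 line. Its differences were 0.48 ± 0.09 and 0.55 ± 0.09 (SE) in the NET29 and NET39 lines, both without overlap of the arrays and the second past the limits. ARMC10 was 0.33 ± 0.07 lower with soluble NET29 (adjusted p = 0.0181), under the fold limit. GPRASP3 passed in no comparison with a control.

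Of 15 genes for mitochondrial transport and shape, 1 was past the limits in any comparison of a line or fragment with its control. This was KIF5C, a kinesin heavy chain, at 0.65 ± 0.12 (SE) in the NET29 line, where 3.29% of all genes passed, 0.39 ± 0.12 in the NET39 line and 0.13 ± 0.13 in the NET47 line. RHOT1 and RHOT2, the Miro GTPases that ARMCX3 binds, were at 0.12 ± 0.14 and -0.15 ± 0.09 in the NET29 line and at -0.05 ± 0.14 and -0.14 ± 0.09 in the NET39 line. The adaptors TRAK1 and TRAK2 were at 0.38 ± 0.11 and 0.34 ± 0.09 in the NET29 line and at 0.44 ± 0.11 and 0.30 ± 0.09 in the NET39 line, all under the fold limit. The median of the 15 was 0.12 in the NET29, 0.13 in the NET39 and 0.05 in the NET47 line, beside 0.00 over all genes. In NLS-GFP cells, given no NET, the median against untreated cells was 0.15, above that of each line. In the NET47 line 0 of 15 passed, where 1.21% of all genes did.

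The neighbours of the family on Xq22 were examined for a wider low stretch around ARMCX2. Of 42 listed genes 38 were measured, 26 of them above background on at least 3 arrays. In the NET29 line 2 of 38 were past the limits, BEX1 and TMSB15B, both lower (3.29% of all genes past). In the NET39 line 5 of 38 were, with BEX1, BEX2, TMSB15A and TMSB15B lower and GPRASP2 higher (3.72%), and in the NET47 line BEX1 lower and TMSB15A higher. The median of the 38 was 0.03, 0.00 and -0.01 in the 3 lines. On the side of ARMCX2 where ARMCX3, ARMCX6 and ARMCX1 lie, the next detected neighbours, HNRNPH2 and GLA, were at 0.07 ± 0.15 and 0.07 ± 0.13 in the NET29 line and at 0.08 ± 0.15 and 0.01 ± 0.13 in the NET39 line. On its other side the first 4 measured genes, TCEAL2, TCEAL6, BEX5 and NXF2, were above background on 0, 0, 1 and 3 of 27 arrays, so a fall there could not have been seen. The first gene beyond them, TMSB15A, was detected on all 27 arrays and is described further on. Whether any gene between ARMCX2 and TMSB15A was lower is therefore not known from these arrays.

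**Figure D4:**
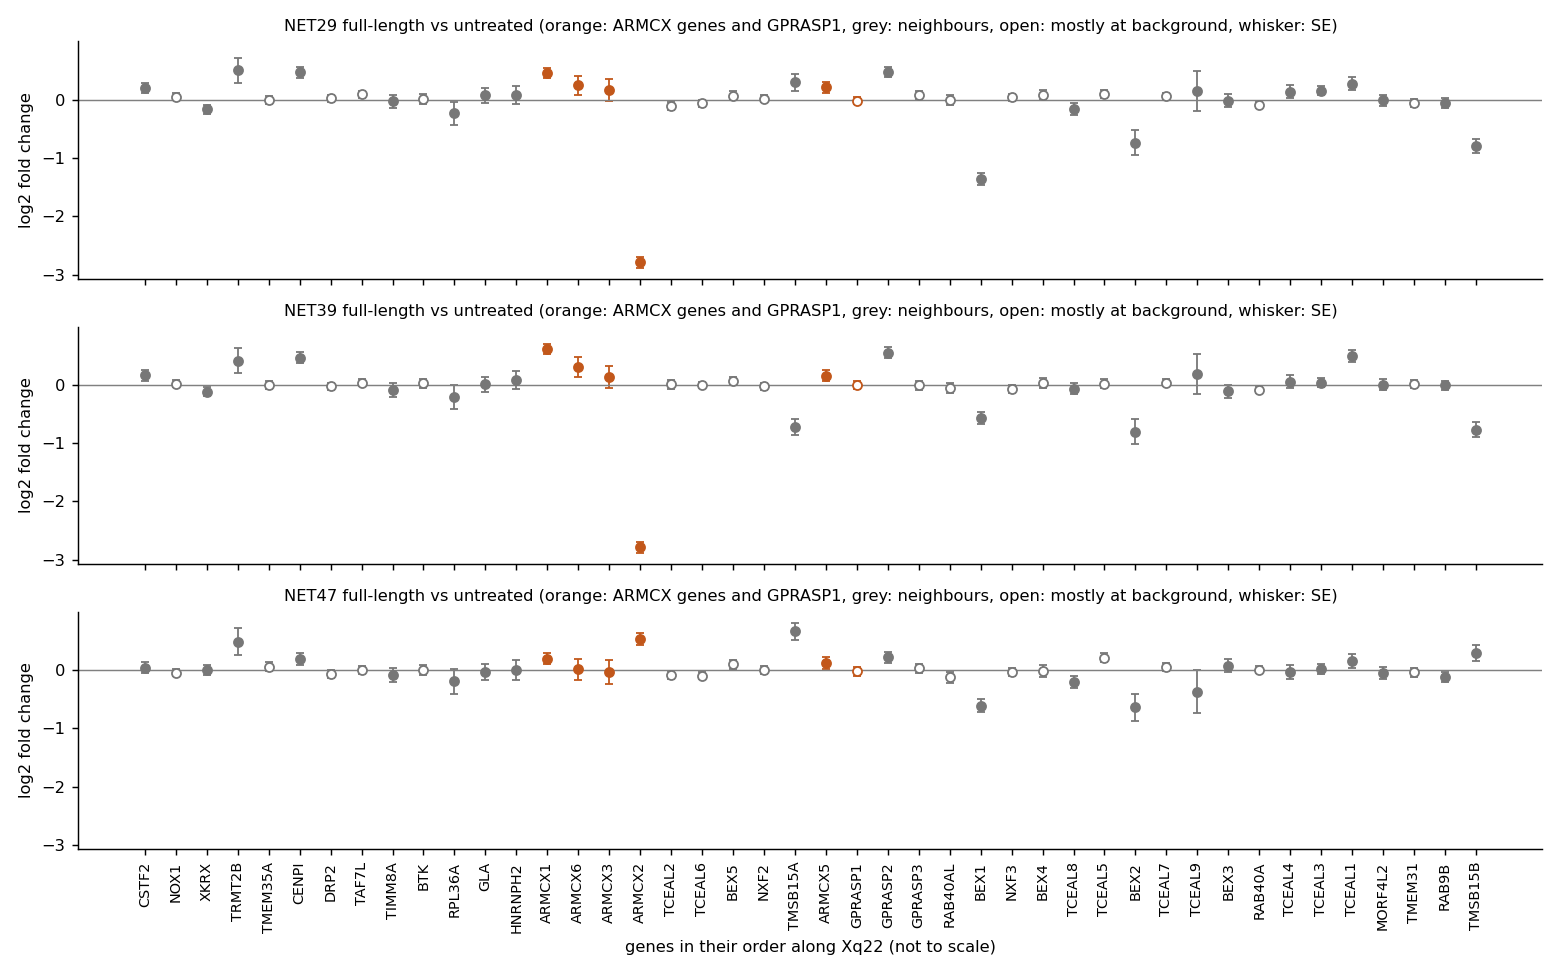
Log2 fold change against untreated cells (point) and SE (whisker) of the measured genes of Xq22 in their order along the chromosome, not to scale, for the NET29, NET39 and NET47 lines, with the ARMCX genes and GPRASP1 in orange (the probe with the highest mean for each gene) and neighbours in grey. Open points are genes above background on fewer than 14 of 27 arrays, among them the 4 measured genes that follow ARMCX2. ARMCX2 is at -2.79 in the first 2 panels, and BEX1, BEX2 and TMSB15B further along are the other low points in the NET29 line.

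BEX1, which encodes a small adaptor of neurotrophin receptor signalling, was the neighbour with the largest fall in the NET29 line. It was at 11.47 ± 0.31 in untreated cells, 10.10 ± 0.15 in the NET29 line, 10.90 ± 0.13 in the NET39 line (SD, n = 4 each) and 10.86 ± 0.04 in the NET47 line (n = 3). Unlike ARMCX2 it was lower in the NET47 line as well (-0.61 ± 0.11, limma, adjusted p = 0.00372), and it differed between the NET29 and NET39 lines by 0.79 ± 0.10. BEX2 was at -0.74 ± 0.21, -0.80 ± 0.21 and -0.64 ± 0.23 (SE) in the 3 lines (limma, adjusted p = 0.37 for NET47). Its untreated arrays ran from 6.73 to 8.40 (7.26 ± 0.77, SD, n = 4), an SD close in size to these falls. With soluble NET29 BEX2 fell as well (-0.98 ± 0.24, limma, adjusted p = 0.0414).

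TMSB15A and TMSB15B, thymosins that bind actin monomers, are near-identical copies whose probes may share signal. TMSB15B was closest to ARMCX2 in direction, at -0.80 ± 0.12 and -0.77 ± 0.12 in the NET29 and NET39 lines and 0.29 higher by group means in the NET47 line (7.84 ± 0.23 against 7.54 ± 0.30, SD). It fell with soluble NET29 (-0.72 ± 0.14, adjusted p = 0.0102) and soluble NET47 (-0.63 ± 0.14, adjusted p = 0.0278), where ARMCX2 did not. TMSB15A was at 0.29 in the NET29 line and -0.72 ± 0.14 in the NET39 line, and it rose in the NET47 line (0.66 ± 0.15, adjusted p = 0.0289) and with soluble NET47 (1.23 ± 0.16, adjusted p = 7.53e-05) but fell with soluble NET29 (-0.86 ± 0.16, adjusted p = 0.00731). With the fragments 3 of 38 neighbours passed for NET29 (BEX2, TMSB15A and TMSB15B, all lower, against 1.3% of all genes), 0 for NET39 (0.145%) and 3 for NET47 (1.17%). The third for NET47 was TCEAL9, which fell by 2.06 on the log2 scale with soluble NET47 (SE 0.39, limma, adjusted p = 0.00615). It was at 7.77 ± 0.15 there and 9.83 ± 0.32 with NLS-GFP (SD, n = 3 each). The untreated arrays of TCEAL9 alone ran from 7.91 to 10.28 (SD 0.98), as wide as this fall.

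The genes whose pattern was most like that of ARMCX2 over the 8 group means lay elsewhere in the genome. Of 6000 candidate probes, with group means that span at least 0.5, the 5 with the highest Pearson correlation were DEDD, a death effector domain protein (0.99), the polyamine oxidase PAOX (0.98), the nuclear pore protein NUP133 (0.98), the metalloprotease ADAM15 (0.98) and the deubiquitinase USP21 (0.98). DEDD, NUP133, ADAM15 and USP21 are on chromosome 1, which held 11.2% of the candidates, and PAOX on chromosome 10. Their changes were smaller: DEDD was at -0.86 and -0.87 in the NET29 and NET39 lines and 0.00 in the NET47 line, and ADAM15 at -0.79, -0.89 and -0.02. The points are 8 group means of one probe set on the same arrays, all 6 genes are lowest in the NET29 and NET39 lines, and the correlation is a description only.

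**Figure D5:**
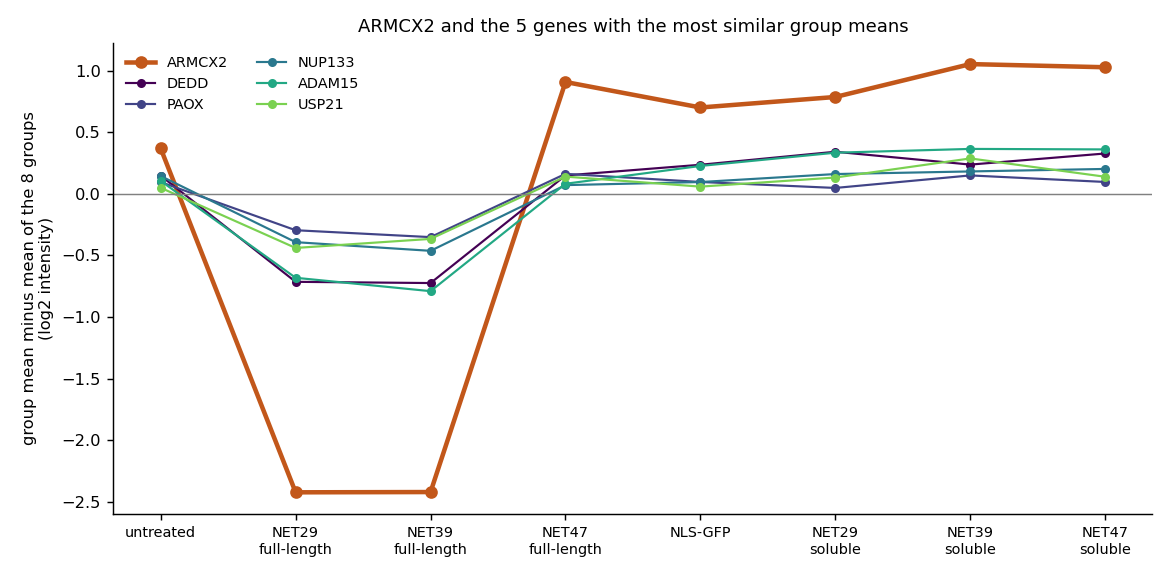
Group mean log2 intensity minus the mean of the 8 groups for ARMCX2 and the 5 genes with the highest correlation to it. All 6 are lowest in the NET29 and NET39 lines, with log2 fold changes of -2.79 in both for ARMCX2 and of -0.86 and -0.87 for DEDD.

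The likeness lists of the other members did not hold the same genes. For ARMCX1 (ILMN_1788192) the 5 were the tetraspanin TSPAN12 (0.97), the matrix glycoprotein tenascin C, TNC (0.95), the growth factor FGF5 (0.95) and the receptors MRGPRX3 and MRGPRX4 (0.93 each). TNC was at 1.04 in the NET29, 1.28 in the NET39 and 0.58 in the NET47 line. Both correlated ARMCX6 probes had GLRX3, MOCS2 and STMN1 among their 5, at 0.93 to 0.95. For ARMCX3 (ILMN_2334765) the first was TBC1D2 (0.95).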

How the data were processed

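Each sample was 1 HumanHT-12 v3 bead array, hybridised with biotin-labelled cRNA made from total RNA. The deposited intensity table held summarised bead intensity values of 48803 probes without normalisation, and gave every main value. The deposited log2 table, quantile normalised by the authors with limma of unstated version, served as an alternative. Groups came from the sample titles.

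The analysis used limma 3.58.1 in R 4.3.3. A normexp correction (offset 50) was applied to the intensities, which were then put on the log2 scale and quantile normalised. The offset draws fold changes towards 0, most where intensities are low, as those of ARMCX2 are in the NET29 and NET39 lines. All 27 arrays entered 1 model of 8 group means with 19 residual degrees of freedom, and limma's moderated statistics were adjusted by Benjamini-Hochberg over all probes. The threshold was an adjusted p under 0.05 with a log2 fold change beyond 0.5. The number of arrays limits the precision. The fit was tested on simulated data. Each neighbouring gene was represented by its probe with the highest mean of all arrays.

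Every member probe is accounted for. Other genes were named if past the threshold, up to 5 per list and comparison, or as the 5 most like a member over group means, and a few of known relation to a member (BEX2, TRAK1, TRAK2, RHOT1, RHOT2, HNRNPH2, GLA, TCEAL2, TCEAL6, BEX5, NXF2, FABP4, ARMC10, GPRASP3) for their place in a list, chosen after their values were seen. The members and lists were chosen with earlier results of these data known. Alternatives changed the normalisation, background correction, table, filter, arrays, control, test and weights. Between arrays of equal replicate number, correlations of deviations were 0.56, 0.39 and 0.61 for soluble NET47 with NLS-GFP. They were 0.55, 0.67, 0.34 and 0.53 for the NET29 with the NET39 line. Every other pair of groups compared held a negative value. Arrays of unequal number were not correlated. A pairing by number would thus rest on these values and not on the labels, and was not tested.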

Additional observations from a re-analysis of the deposited data

Results flagged for a closer look

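After normalisation, ARMCX2 lay below all untreated arrays in the NET29 and NET39 lines and above them in the NET47 line. As deposited, the NET47 line arrays (1389, 1470 and 1623) lay within the range of the untreated cells. The call of a rise in the NET47 line was lost in 6 of 19 alternatives. The NET47 line stood 3.3295 above the NET29 line and 3.3273 above the NET39 line on the log2 scale. The difference was not tested, since ARMCX2 was chosen by its fall. Of 33 group and probe combinations examined for a single distant array, 3 held one, and chance alone marks about 1 in 20. ARMCX3 (ILMN_2334765) was at 6.48 in NET39 line replicate 2 and between 6.81 and 6.83 in the other 3 arrays (gap over range 0.934). ARMCX5 was at 6.78 in NET39 line replicate 3 and between 7.04 and 7.09 in the others (0.834). ARMCX6 (ILMN_1768226) was at 6.40 in untreated replicate 4 and between 6.62 and 6.67 in the others (0.832).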

How the results depend on the processing

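The fall of ARMCX2, by which the family was chosen, ranged from -3.12 to -2.72 in the NET29 line and from -3.12 to -2.72 in the NET39 line over the 20 alternatives run for each, given as a description from which no support is drawn. The count of member probes past the limits moved from 1 to 2 in the NET29 line without untreated replicate 4 (1 to 2 over the arrays left out in turn), and from 2 to 1 in the NET39 line under median scaling, where ARMCX1 was at 0.72 with an adjusted p of 0.247. In the NET47 line it went from 1 to 0 under median scaling, with only the arrays of the groups compared (ARMCX2 0.54, adjusted p = 0.157), without untreated replicate 2 and NET47 line replicate 3 together (0.50, adjusted p = 0.0697) and with NLS-GFP as the control, and ranged from 0 to 1 over the arrays left out in turn. For soluble NET29, NET39 and NET47 it went from 0 to 1 with only the arrays compared and with the moderated F, which asks whether any of the 8 groups differs and so holds the NET29 and NET39 line arrays, and for soluble NET47 also with array weights (ARMCX6 0.73, adjusted p = 0.0477) and without its replicate 2 (0 to 1 over the arrays left out). The moderated F gave 1 in place of 0 for full-length minus fragment effect of NET47. Under median scaling soluble NET29 turned to -0.42 for ARMCX2 and -0.056 for ARMCX6 (ILMN_2414533). The cause was not tested. With the replicate number as a block the counts in the 3 lines were 1, 2 and 1, and the block changed no call of a member. Taking quantiles before the log, chosen after seeing the data, moved none of these counts. Slide as a block was not run, as no slide is named in the tables. ARMCX2, ARMCX5 and GPRASP1 rest on 1 probe each, and probes near background, the third ARMCX3 probe and GPRASP1, limit what can be detected.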
